A study of Rattus norvegicus with 6 samples.

Results

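Kupffer cells are the resident macrophages of the liver. They line the sinusoids, where blood arriving from the gut passes first, and they clear bacteria, complement-coated particles, aged red blood cells and free haemoglobin. They depend on signals through the CSF-1 receptor, and in rodents the lectin Clec4f is restricted to them within the liver, while other genes that mark them are shared with macrophages elsewhere. The genes described here are 10 such markers, taken by name from the 30957 genes of the deposited liver expression table: Clec4f, Marco, Cd163, Vsig4, Csf1r, Adgre1, Cd68, C1qa, C1qb and C1qc. They were named as known markers and not picked by a threshold on these values, although earlier results of these data were known when they were named.

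RNA was sequenced from whole liver tissue of 3 rats of the t-PBS group and 3 rats of the t-DHEA group, from an experiment that had 6 recipients in each group. All were female Sprague Dawley rats, 3 weeks old at purchase, kept specific pathogen-free, and all were first given repeated courses of an antibiotic cocktail in drinking water to deplete their own gut microbiota (pseudo germ-free rats). For 14 days they then received faecal microbiota by gavage, from PBS-injected donors in the t-PBS group and from donors injected with dehydroepiandrosterone (DHEA), an androgen precursor used to model polycystic ovary syndrome, in the t-DHEA group. The recipients themselves were not injected with DHEA, and the donor pellets were pooled, so that the donors are not separate replicates. The question was whether a DHEA-shaped microbiota left the Kupffer cell genes of the recipient liver at a different level. Because no liver was dissociated into cells, fewer Kupffer cells and less RNA per Kupffer cell cannot be told apart.

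The total count on genes was 12348511 to 14316886 per liver. Levels are given as CPM (counts scaled to the size of the library, here normalised by the trimmed mean of M-values, TMM) or, where different genes are compared, as the deposited FPKM, which also divide by gene length. A count of 0 is compatible with up to 3 counts, which was 0.21 to 0.243 CPM in these libraries, and this limit covers counting error only. The lowest value of a Kupffer cell gene was 167 counts, for Marco in t-PBS rat 3, and the highest was 3600 counts, for Clec4f in t-DHEA rat 3, so counting error was small for all of them. All 10 genes passed the filter on low counts, as did 12210 genes in all. None of them overlapped another gene of the table.

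The promoters of the 4 genes that were most alike over the livers, among those with a promoter entry, are shown, with the letters of macrophage-related motifs in capitals. The sequences are those of RefSeq, build GRCr8, from 250 bases before to 50 bases after the start of the gene, read 5′ to 3′ on the gene's own strand. Promoters of 9 of the 10 genes matched by symbol, the exception being C1qc. Capitals mark GAGGAA or GGAAGT, cores bound by ETS factors such as the macrophage factor PU.1, and TCATGTG, an M-box bound by MITF and TFE factors, each on either strand, so that TTCCTC and ACTTCC are matches read from the other strand. The C1qa promoter is chr5:154419884-154420183 on the minus strand, that of C1qb chr5:154407778-154408077 on the minus strand, that of Adgre1 chr9:2329190-2329489 on the plus strand, and that of Clec4f chr4:117696358-117696657 on the minus strand.
C1qa: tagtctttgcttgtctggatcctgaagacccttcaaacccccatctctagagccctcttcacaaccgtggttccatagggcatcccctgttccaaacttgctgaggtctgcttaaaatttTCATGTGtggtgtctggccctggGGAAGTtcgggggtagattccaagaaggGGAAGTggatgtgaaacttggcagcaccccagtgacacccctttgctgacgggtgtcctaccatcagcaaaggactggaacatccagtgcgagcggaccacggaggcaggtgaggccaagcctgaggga
C1qb: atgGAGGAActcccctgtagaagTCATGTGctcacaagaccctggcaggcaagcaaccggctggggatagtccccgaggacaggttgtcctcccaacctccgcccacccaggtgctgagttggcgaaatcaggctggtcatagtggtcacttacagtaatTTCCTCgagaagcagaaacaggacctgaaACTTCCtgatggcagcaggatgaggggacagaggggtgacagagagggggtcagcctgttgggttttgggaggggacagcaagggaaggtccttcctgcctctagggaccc
Adgre1: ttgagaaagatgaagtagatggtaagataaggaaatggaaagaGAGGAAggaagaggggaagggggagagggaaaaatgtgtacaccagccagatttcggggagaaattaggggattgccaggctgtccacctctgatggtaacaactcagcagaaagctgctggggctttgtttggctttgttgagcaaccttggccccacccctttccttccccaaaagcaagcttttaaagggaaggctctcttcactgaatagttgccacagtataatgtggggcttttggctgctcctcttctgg
Clec4f: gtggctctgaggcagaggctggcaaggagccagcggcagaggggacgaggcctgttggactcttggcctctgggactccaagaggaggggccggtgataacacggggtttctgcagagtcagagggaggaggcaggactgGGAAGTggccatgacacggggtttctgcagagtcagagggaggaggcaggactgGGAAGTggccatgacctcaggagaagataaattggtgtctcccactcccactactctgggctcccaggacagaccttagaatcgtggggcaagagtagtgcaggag

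GAGGAA stood in 5 of the 9 promoters (C1qb, Adgre1, Cd68, Marco and Csf1r), and in 27.6% of the 33469 RefSeq promoters of the same length. GGAAGT stood in 4 of the 9 (Clec4f, C1qa, C1qb and Cd68), against 22.6% of all promoters. TCATGTG stood in 2 of the 9, those of C1qa and C1qb, against 3.56% of all. It began 130 bases before the start of C1qa and 227 bases before that of C1qb. The Clec4f window held an exact direct repeat of 54 bases, whose copies began 151 and 97 bases before the start of the gene, and each copy carried 1 GGAAGT. The other letters searched on both strands were TGCTGA, part of the MAF recognition element, in 5 of the 9 promoters against 18.4% of all; TGACTCA, an AP-1 site, in 1 (Cd68) against 4.63%; TATAAA in 1 (Marco) against 14.2%; AGGAAGT, which contains GGAAGT, in 1 (C1qb) against 8.41%; and the longer PU.1 core GAGGAAGT, CACGTG and TTTCCGC in 0, against 2.42%, 6.42% and 2.36%. These are matches of letters in a window and not sites at which binding was measured.

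Per unit of length, Clec4f was the most abundant of the 10 genes, at 112 ± 19.7 FPKM over the 6 livers (SD), followed by the complement C1q chains C1qa at 90.2 ± 15.6, C1qc at 72.3 ± 13.2 and C1qb at 50.8 ± 8.89 FPKM. Vsig4 followed at 28.8 ± 3.68 and Cd68 at 20.7 ± 3.29 FPKM. From Clec4f down to Vsig4, each gene exceeded the next in rank in 6 of 6 livers. Lower were Marco at 16.4 ± 7.51, Csf1r at 15.3 ± 1.36, Cd163 at 9.95 (range 6.77 to 13.1) and Adgre1 at 7.56 ± 1.17 FPKM. Cd68 exceeded Marco in 5 livers, Marco exceeded Csf1r in only 3, and Cd163 exceeded Adgre1 in 5, so that the order of those neighbours did not hold beyond the spread between livers. Clec4f, the most restricted marker, led the list in each liver. Its rank does not show that the RNA of the other genes came from Kupffer cells. Of 12 other markers of these cells, Cd5l, Folr2, Slc40a1, Id3, Nr1h3, C6, Il18bp, Hmox1 and Cd38 passed the filter, while Timd4, Spic and Cd207 had 17, 41 and 1 counts over the 6 livers together.

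No Kupffer cell gene met the criteria used by the study for a differentially expressed gene. These were an unadjusted p below 0.05 with a fold-change above 1.2 in either direction. Here edgeR tested raw counts, whereas the paper states that edgeR used FPKM values with the same criteria. Over all 12210 genes tested, 604 (4.95%) met them, 240 of them (1.97%) higher and 364 (2.98%) lower in the t-DHEA group, so that 0 of 10 is near the share of all genes. With total counts in place of TMM, 157 were higher and 471 lower, and with limma on log2(FPKM + 0.1) or log2(FPKM + 1) they were 165 and 448, or 147 and 390. The share higher was thus 39.7% with TMM and 25% with total counts. At an adjusted p below 0.05 no gene passed in edgeR's quasi-likelihood test (0%), whereas 634 genes (5.19%) had an unadjusted p below 0.05, and DESeq2 and edgeR's likelihood-ratio test called 24 and 28 genes at that adjusted p. The lowest adjusted p of any gene was 0.243 and the lowest of a Kupffer cell gene was 0.986. Since 3 livers stand in each group, an exact permutation test of a single gene could not go below p = 0.1. The p-values given here set a difference against the spread between these rats only. The paper kept rats in shared cages, and which of these rats shared a cage is not given.

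Of the 10 genes, 8 had a higher and 2 (Csf1r and Cd68) a lower fitted level in the t-DHEA group, against 50.4% of all genes tested with a higher level. The median log2 fold change was 0.14, against 0.0013 over all genes. It was -0.03 without t-DHEA rat 3, and between that and 0.21 when each liver was left out in turn. In none of the 10 genes were the groups free of overlap, as they were in 1231 (10.1%) of all genes. The 95% interval of the log2 fold change included no change in all 10. Only the interval of Marco reached a 2-fold difference, and 3 reached a 1.5-fold difference (Clec4f, Marco and Cd163), so that for these 3 genes the data allow differences of such sizes.

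**Figure D1:**
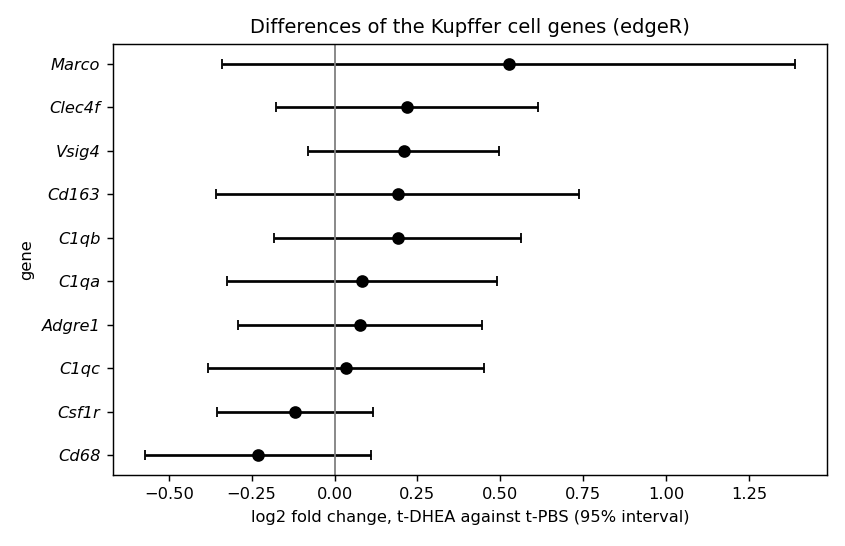
The log2 fold change of each Kupffer cell gene, t-DHEA against t-PBS, from edgeR (point) with its 95% interval (bar), ordered by size. All 10 intervals cross the line at 0, and the interval of Marco, from -0.34 to 1.39, is the widest.

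The lectin and the capture receptors came first. Clec4f (ENSRNOG00000013137, chr4:115322291-115332052 in Rnor_6.0) encodes a C-type lectin that binds galactose-bearing glycans. Its level was 219, 158 and 225 CPM in t-PBS rats 1, 2 and 3, and 232, 189 and 278 CPM in t-DHEA rats 1, 2 and 3. The low liver of each group was rat 2, and t-DHEA rat 2 lay below t-PBS rats 1 and 3, so the groups overlapped. The means were 201 ± 36.9 and 233 ± 44.4 CPM (SD, n = 3 each). The fitted log2 fold change was 0.22 (SE 0.17, 95% interval -0.18 to 0.61), and the adjusted p was 0.986 (edgeR's quasi-likelihood test, Benjamini-Hochberg adjustment). Leaving out t-PBS rat 2 or t-DHEA rat 3 gave 0.08, and leaving out t-DHEA rat 2 gave 0.35.

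Vsig4 (ENSRNOG00000038132, chrX:65370851-65400298) encodes CRIg, the receptor by which Kupffer cells take complement C3-coated bacteria from the blood. It was at 37.7, 35.4 and 40.4 CPM in the t-PBS livers and at 37.9, 42.1 and 51.1 CPM in the t-DHEA livers. Only t-DHEA rat 1 lay within the t-PBS range, and the other t-DHEA livers lay above it. Its log2 fold change was 0.21 (SE 0.13, interval -0.08 to 0.50, adjusted p 0.986), and its unadjusted p of 0.136 in edgeR was the lowest of the 10 genes. Without t-DHEA rat 1 it met the criteria, at 0.30 with an unadjusted p of 0.0431 in edgeR, and without t-DHEA rat 3 it was 0.09.

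Marco (ENSRNOG00000049303, chr16:85115201-85135859 in Rnor_6.0, on chromosome 13 in RefSeq GRCr8) encodes a scavenger receptor for bacteria and particles. It was at 18.1, 33.6 and 12.6 CPM in the t-PBS livers and at 18.6, 44.4 and 29.4 CPM in the t-DHEA livers. Within both groups rat 2 was the highest, the reverse of Clec4f, and the groups overlapped over most of their range. The highest liver had 3.53 times the level of the lowest. The within-group SD on the log2 scale was 0.67, against a median of 0.19 over all genes, and larger than in 96.3% of them. Its log2 fold change was 0.53 (SE 0.38, interval -0.34 to 1.39, adjusted p 0.986 in edgeR). It met the criteria without t-PBS rat 2, at 1.01 with an unadjusted p of 0.0174 in edgeR, whereas leaving out t-DHEA rat 2 gave 0.17 and leaving out t-PBS rat 3 gave 0.26. It also met them with the rat number as a block, at 0.55 with an unadjusted p of 0.0469, although the numbers did not pair the livers.

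Cd163 (ENSRNOG00000010253, chr4:156752082-156785467) encodes the receptor for complexes of haptoglobin and haemoglobin. It was at 39.7, 35.6 and 53.5 CPM in the t-PBS livers and at 54.3, 31.6 and 61.2 CPM in the t-DHEA livers. Both the lowest and the highest liver, rats 2 and 3, belonged to the t-DHEA group. The log2 fold change was 0.19 (SE 0.24, interval -0.36 to 0.74, adjusted p 0.990 in edgeR). Without t-DHEA rat 2 it met the criteria, at 0.43 with an unadjusted p of 0.0363 in edgeR, whereas leaving out t-DHEA rat 3 gave 0.0050 and leaving out t-PBS rat 2 gave 0.08.

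**Figure D2:**
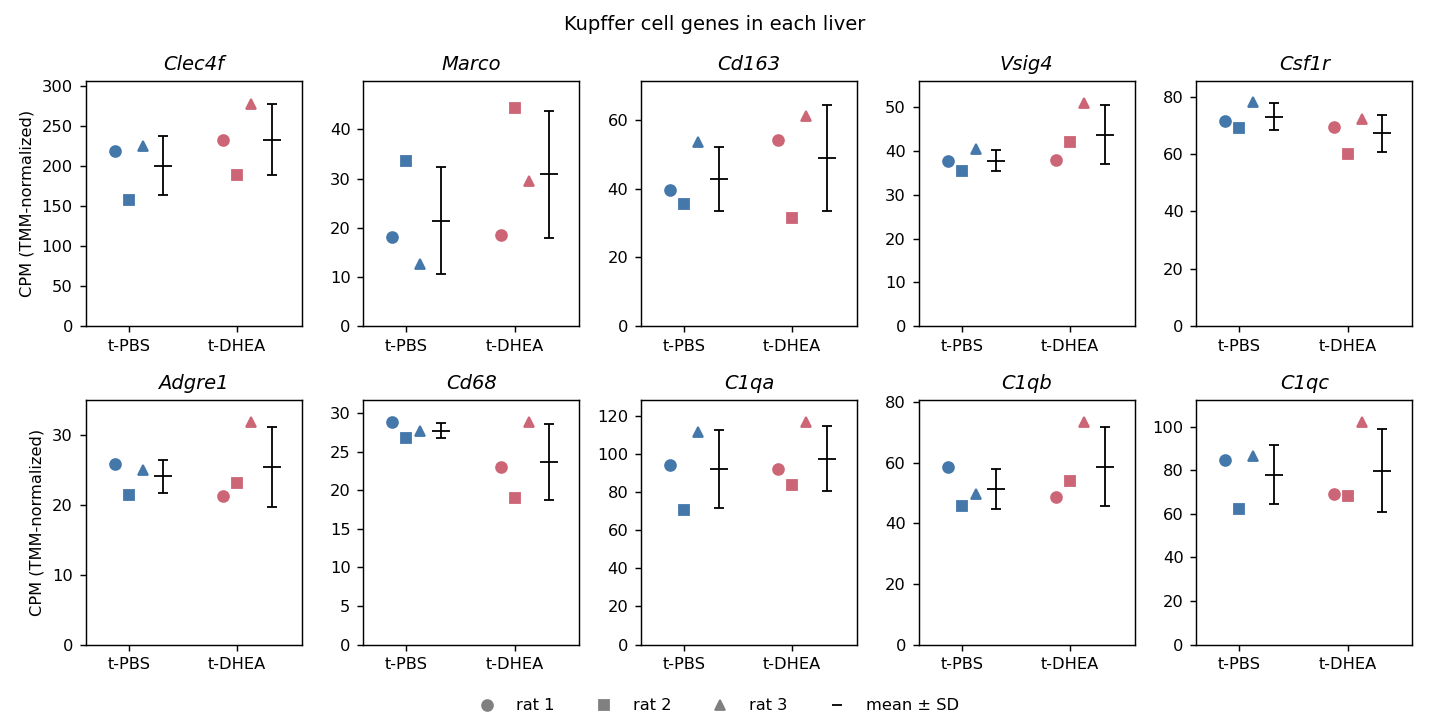
Level of each Kupffer cell gene in CPM (TMM-normalised; each vertical axis starts at 0) in the 3 t-PBS livers (blue) and the 3 t-DHEA livers (red), with symbols for rats 1, 2 and 3 and the mean ± SD beside each group. The groups overlap in all 10 genes, and t-DHEA rat 3 is the highest liver in 8 of them.

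The general macrophage genes followed. Csf1r (ENSRNOG00000018414, chr18:56414488-56458300) encodes the receptor of the growth factors CSF-1 and IL-34, on which macrophage survival depends. It was at 71.7, 69.1 and 78.3 CPM in the t-PBS livers and at 69.5, 60.0 and 72.2 CPM in the t-DHEA livers. The t-DHEA range lay lower but the groups overlapped, and t-PBS rat 3 was the highest liver. Its log2 fold change was -0.12 (SE 0.10, interval -0.35 to 0.12, adjusted p 0.986 in edgeR), the narrowest interval of the 10 genes. Leaving out t-DHEA rat 2 gave -0.04 and leaving out t-DHEA rat 3 gave -0.17.

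Adgre1 (ENSRNOG00000046254, chr9:9431860-9585865) encodes the adhesion G protein-coupled receptor known as F4/80, a general macrophage antigen of rodents. It was at 25.9, 21.4 and 25.0 CPM in the t-PBS livers and at 21.2, 23.1 and 31.9 CPM in the t-DHEA livers. The t-DHEA group held both the lowest and the highest liver, rats 1 and 3. Adgre1 had a log2 fold change of 0.08 (SE 0.16, interval -0.29 to 0.45, adjusted p 0.990 in edgeR), and without t-DHEA rat 3 it was -0.12.

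Cd68 (ENSRNOG00000037563, chr10:56268720-56270640) encodes macrosialin, a glycoprotein of macrophage lysosomes. It was at 28.8, 26.8 and 27.6 CPM in the t-PBS livers and at 23.0, 19.0 and 28.9 CPM in the t-DHEA livers. The t-PBS livers lay close together, t-DHEA rats 1 and 2 lay below them, and t-DHEA rat 3 lay just above. Cd68 had a log2 fold change of -0.23 (SE 0.15, interval -0.57 to 0.11, adjusted p 0.986 in edgeR). Without t-DHEA rat 3 it met the criteria, at -0.40 with an unadjusted p of 0.0171 in edgeR, whereas it was -0.09 without t-DHEA rat 2.

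The C1q chains lie side by side on chromosome 5 of Rnor_6.0, C1qb at chr5:155246447-155252003, C1qc at chr5:155255005-155258392 and C1qa at chr5:155261250-155264143. The gaps between them are 3001 and 2857 bases, and the cluster spans 17697 bases. Their products assemble into C1q, the part of complement C1 that recognises antibody complexes and dying cells, and macrophages make most of it.

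C1qa (ENSRNOG00000012807) was at 94.4, 70.4 and 111 CPM in the t-PBS livers and at 91.9, 83.9 and 117 CPM in the t-DHEA livers. C1qb (ENSRNOG00000012749) was at 58.8, 45.8 and 49.9 CPM in the t-PBS livers and at 48.7, 54.0 and 73.5 CPM in the t-DHEA livers. C1qc (ENSRNOG00000012804) was at 84.9, 62.5 and 86.8 CPM in the t-PBS livers and at 69.2, 68.4 and 102 CPM in the t-DHEA livers. All 3 chains were lowest in t-PBS rat 2 and highest in t-DHEA rat 3, and the rest of the livers overlapped. The log2 fold changes were 0.08 (SE 0.18, interval -0.33 to 0.49) for C1qa, 0.19 (SE 0.16, interval -0.18 to 0.56) for C1qb and 0.03 (SE 0.18, interval -0.38 to 0.45) for C1qc. Their adjusted p-values in edgeR were 0.990, 0.986 and 0.993. Without t-DHEA rat 3 the values of C1qa, C1qb and C1qc were -0.06, 0.0017 and -0.18, and without t-PBS rat 2 they were -0.08, 0.12 and -0.10. C1qb was at most 0.31, without t-DHEA rat 1. The sign of C1qc also turned with total counts and with limma on FPKM, so no direction is given for it.

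In FPKM, the ratio of C1qa to C1qb was 1.66, 1.59 and 2.31 in the t-PBS livers, against 1.95, 1.60 and 1.64 in the t-DHEA livers. That of C1qc to C1qb was 1.43, 1.36 and 1.73, against 1.41, 1.26 and 1.38. Both ratios were highest in t-PBS rat 3, where C1qb was low relative to its neighbours. The 3 chains were thus at unequal levels in a like order in every liver, C1qa above C1qc above C1qb.

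A ratio of FPKM values within a liver does not depend on how the livers are scaled to each other. The sum of the general macrophage genes Csf1r, Adgre1 and Cd68 was 46.6, 44.9 and 47.0 FPKM in the t-PBS livers, against 39.4, 35.0 and 48.3 FPKM in the t-DHEA livers. Clec4f was at 2.42, 1.90 and 2.48 times that sum in the t-PBS livers and at 3.00, 2.77 and 2.96 times in the t-DHEA livers. The groups of this ratio did not overlap, with means of 2.27 ± 0.32 and 2.91 ± 0.12 (SD, n = 3 each). Vsig4 was at 0.571, 0.581 and 0.609 times the sum in the t-PBS livers and at 0.668, 0.841 and 0.741 times in the t-DHEA livers, also without overlap. Of all 12210 genes tested, 7.85% had groups that did not overlap and were higher in t-DHEA in the ratio to this sum. In the other 5 of the 7 ratios (Marco, Cd163, C1qa, C1qb and C1qc) the groups overlapped. For C1qb, t-DHEA rats 2 and 3 were at 1.41 and 1.39, above the t-PBS livers at 1.16, 0.979 and 0.981, and t-DHEA rat 1 was at 1.12.

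Which general macrophage gene stood below the line mattered. Against Cd68 alone, 3 of the 7 genes had groups that did not overlap, all higher in t-DHEA (Clec4f, Vsig4 and C1qb), as had 12.2% of all genes tested. Against Csf1r alone there were 2 (Clec4f and Vsig4), and 10.4% of all genes. Against Adgre1 alone there was 1 (C1qb), and 0.737% of all genes. The ratio of C1qb to Adgre1 was 6.84, 6.46 and 6.03 in the t-PBS livers, against 6.93, 7.05 and 6.96 in the t-DHEA livers. The highest t-PBS liver thus lay only just below the lowest t-DHEA liver. The ratio of Clec4f to Cd68 was 4.89, 3.80 and 5.24 in the t-PBS livers, against 6.49, 6.42 and 6.20 in the t-DHEA livers. The ratio of Clec4f to Adgre1 was 14.3, 12.5 and 15.3 in the t-PBS livers, against 18.6, 13.9 and 14.8 in the t-DHEA livers, with overlap. These ratios were formed knowing that Csf1r and Cd68 were the 2 genes with lower means, and they are a description with no test.

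**Figure D3:**
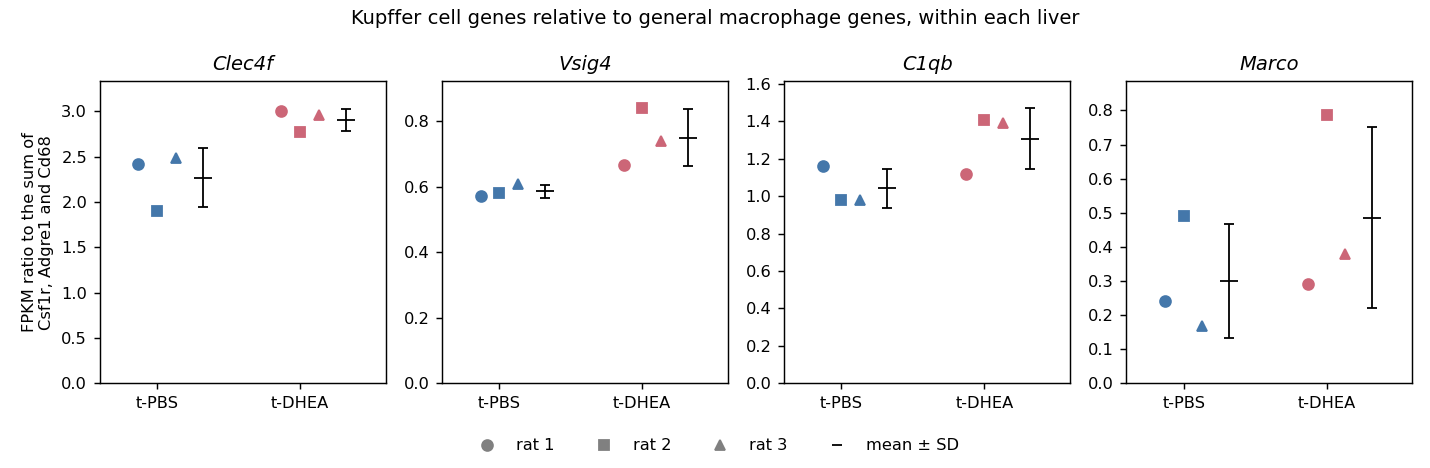
FPKM of Clec4f, Vsig4, C1qb and Marco divided, within each liver, by the sum of the FPKM of Csf1r, Adgre1 and Cd68 (each vertical axis starts at 0), with points for the 3 t-PBS (blue) and 3 t-DHEA (red) livers and the mean ± SD. The groups do not overlap for Clec4f and Vsig4, and they overlap for C1qb and Marco.

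Apart from Marco, the Kupffer cell genes tended to be high and low in the same livers. Of the 10 genes, 8 were highest in t-DHEA rat 3, the exceptions being Marco (t-DHEA rat 2) and Csf1r (t-PBS rat 3), and 5 were lowest in t-PBS rat 2. The mean of the standardised log2 CPM of the 10 genes was 0.09, -0.72 and 0.25 in the t-PBS livers, against -0.29, -0.55 and 1.21 in the t-DHEA livers. Rat 2 was thus the low liver in each group and t-DHEA rat 3 the high one. How many of all genes tested were highest or lowest in these livers was not counted. The order is therefore not shown to be particular to the Kupffer cell genes. Albumin took 10.6% of the counts in t-DHEA rat 3, the lowest share, against 11.2% to 13.5% in the other livers.

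Over the 6 livers, which share a TMM scale and a single library each, the 36 pairs of genes other than Marco all had a Pearson r above 0 for log2 CPM, with a median of 0.69. After the group means were removed, all 36 were still above 0, with a median of 0.77. Pairs among other genes were not compared with them. The most alike were Adgre1 and C1qc (r = 0.943), Adgre1 and C1qb (0.937), Clec4f and C1qa (0.922), and C1qa and C1qc (0.920). Vsig4 and C1qb (0.861) and Csf1r and Cd68 (0.851) followed. Marco stood apart, with r below 0 in 7 of its 9 pairs, from -0.83 with Csf1r to 0.22 with Vsig4 and a median of -0.41.

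**Figure D4:**
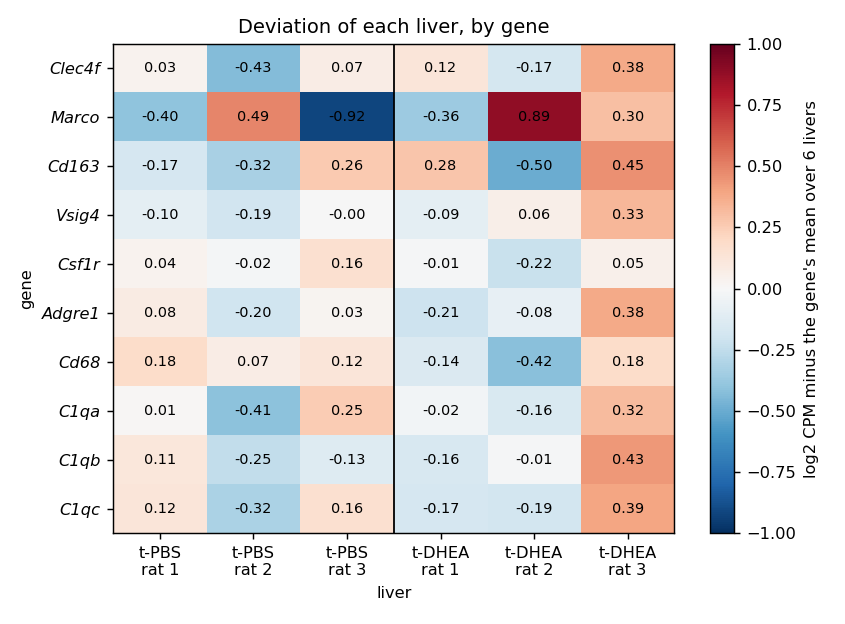
Deviation of log2 CPM from the gene's own mean over the 6 livers, by gene (rows) and liver (columns), with red above and blue below the mean and the value in each cell. The column of t-DHEA rat 3 is above the mean in all 10 genes, and Marco runs against most of the other genes in t-PBS rats 2 and 3 and in t-DHEA rat 2.

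Among 11776 genes tested with a mean of at least 1 CPM, the 5 outside the Kupffer cell genes whose log2 CPM was most like this mean were Pdap1 (r = 0.982), St3gal6 (0.977), Slc27a2 (0.976), Tlr4 (0.970) and Rpl19 (0.964). Tlr4, the receptor of bacterial lipopolysaccharide, was at 2.52, 2.21 and 2.49 CPM in the t-PBS livers and at 2.48, 2.32 and 3.09 CPM in the t-DHEA livers. Slc27a2, an acyl-CoA synthetase and fatty acid transporter abundant in hepatocytes, was at 1035, 921 and 1051 CPM against 949, 962 and 1149 CPM. Like Clec4f, Vsig4 and the C1q chains, but not the other Kupffer cell genes, both were highest in t-DHEA rat 3 and lowest in t-PBS rat 2. The 5 genes were picked as the highest r among so many with 6 points each, and their r is a description only.

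Other genes of Kupffer cells and of macrophage pathways were followed as lists, several of which hold some of the 10 genes as well. Of the 12 other Kupffer cell markers, 9 were tested, 6 were higher and 3 lower in the t-DHEA group, 0 met the criteria, and the median log2 fold change was 0.08 (lowest -0.011 leaving out t-PBS rat 2, highest 0.11 leaving out t-PBS rat 1). Their summed level was 677 to 702 CPM in the t-PBS livers and 708 to 779 CPM in the t-DHEA livers, ranges that did not overlap. Without C6, a sum formed after the values were seen, they were 450.4, 421 and 470.0 CPM against 425, 458 and 491 CPM, and overlapped. C6, a component of the terminal complement complex, was at 236, 256 and 232 CPM in t-PBS and 301, 249 and 288 CPM in t-DHEA livers (log2 fold change 0.21, unadjusted p 0.0792 in edgeR). In whole tissue the cells that gave this RNA are not known, so the sum with C6 cannot be read as a Kupffer cell level. Id3, a transcription regulator needed for Kupffer cell development, was at 52.9, 51.0 and 58.1 CPM against 45.4, 50.7 and 40.5 CPM. The groups did not overlap for Id3, the t-DHEA livers being the lower, with a log2 fold change of -0.25 (unadjusted p 0.0547 in edgeR), short of the criteria. Nr1h3, which encodes the nuclear receptor LXR alpha, was at 0.15 with an unadjusted p of 0.154 in edgeR.

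Of 8 macrophage growth factors and their receptors, 6 were tested, 1 was higher, 5 lower and 0 met the criteria, with a median log2 fold change of -0.13 (lowest -0.21 leaving out t-PBS rat 3, highest -0.04 leaving out t-PBS rat 1). Csf1, the ligand of Csf1r, was at 13.7, 12.1 and 11.2 CPM in the t-PBS livers and at 12.1, 10.8 and 10.4 CPM in the t-DHEA livers. Il34, its other ligand, was at 4.07, 3.17 and 3.17 CPM against 2.31, 2.84 and 4.25 CPM. Neither ligand separated the groups, and Csf2 and Csf3 had 2 and 0 counts in all livers together. Of 16 macrophage transcription factors 14 were tested, 5 higher and 9 lower, 0 meeting the criteria, with a median of -0.15 (lowest -0.18 leaving out t-DHEA rat 3, highest -0.10 leaving out t-DHEA rat 2). Among them Spi1, which encodes PU.1, was at 8.62, 7.23 and 7.62 CPM in the t-PBS livers and at 6.44, 4.64 and 7.88 CPM in the t-DHEA livers. Maf (log2 fold change -0.26) and Tfec (-0.45) had unadjusted p-values of 0.0909 and 0.0886 in edgeR.

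Of 17 scavenger and phagocytic receptors 14 were tested, 10 higher and 4 lower, with 0 meeting the criteria and a median of 0.09 (lowest 0.02 leaving out t-DHEA rat 1, highest 0.18 leaving out t-DHEA rat 2). Msr1, the class A scavenger receptor related to Marco, was at 31.1, 46.4 and 45.5 CPM in the t-PBS livers and at 53.2, 31.8 and 45.3 CPM in the t-DHEA livers. Msr1 was highest in t-DHEA rat 1. It was lowest in t-PBS rat 1 and nearly as low in t-DHEA rat 2, the liver with the most Marco. Mertk, a receptor for dying cells, had a log2 fold change of -0.14 (unadjusted p 0.319 in edgeR). Of 14 genes of haemoglobin uptake and iron recycling, 13 were tested, 9 higher and 4 lower, with 0 meeting the criteria and a median of 0.11 (lowest 0.06 leaving out t-DHEA rat 3, highest 0.13 leaving out t-DHEA rat 1). Hmox1, the haem-degrading enzyme, was at 47.8, 40.8 and 43.6 CPM against 32.9, 45.1 and 41.5 CPM, and Slc40a1, the iron exporter ferroportin, at 92.3, 83.0 and 85.8 CPM against 78.4, 96.1 and 90.1 CPM. The groups overlapped in both genes.

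Of 11 genes of complement C1 and the classical pathway, 9 were tested, 8 were higher and 1 lower, and the median was 0.19 (lowest 0.07 leaving out t-DHEA rat 3, highest 0.30 leaving out t-PBS rat 1). C4bpa, an inhibitor of the pathway made by hepatocytes, met the criteria at 0.29, with an unadjusted p of 0.0403 in edgeR. It did so in only 1 of the 6 fits that left out a liver, that without t-PBS rat 1, where it was 0.37, and it ranged down to 0.19 without t-PBS rat 2. The C1 proteases, C1r (0.29) and C1s (0.32), which hepatocytes also make, had unadjusted p-values of 0.115 and 0.0668 in edgeR. Of 13 complement receptors 12 were tested, 4 higher and 8 lower, with 0 meeting the criteria and a median of -0.12 (lowest -0.14 leaving out t-PBS rat 1, highest -0.04 leaving out t-DHEA rat 2). C1qbp, which binds the heads of C1q, had separated groups, at 61.8, 64.6 and 58.1 CPM against 52.3, 48.2 and 55.5 CPM. Its log2 fold change of -0.24 had an unadjusted p of 0.0323 in edgeR but stayed under the fold-change of 1.2.

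Of 12 Fc receptors and ITAM adaptors 10 were tested, 5 higher and 5 lower, with a median of 0.03 (lowest -0.11 leaving out t-DHEA rat 3, highest 0.02 leaving out t-DHEA rat 2). Syk, the kinase downstream of these receptors, was at 10.5, 8.48 and 9.21 CPM in the t-PBS livers and at 7.35, 7.26 and 7.57 CPM in the t-DHEA livers, without overlap. It met the criteria at -0.35 with an unadjusted p of 0.0336 in edgeR, and among the fits without 1 liver in only that without t-PBS rat 2 (-0.41). It was -0.26 without t-PBS rat 1, and DESeq2 did not call it (unadjusted p 0.109). Of 13 lysosomal glycoproteins and cathepsins, all were tested, 6 higher and 7 lower, with a median of -0.04 (lowest -0.11 leaving out t-PBS rat 2, highest 0.02 leaving out t-PBS rat 3). Lyz2, the lysozyme of macrophages and monocytes, was at 43.0, 44.8 and 45.3 CPM in the t-PBS livers and at 32.1, 39.4 and 26.2 CPM in the t-DHEA livers. It fell by 0.44 on the log2 scale (SE 0.14, unadjusted p 0.0134, adjusted p 0.868 in edgeR), and it met the criteria in all 6 fits without 1 liver, from -0.60 to -0.31. The liver with the least Lyz2, t-DHEA rat 3, was the one in which 8 of the Kupffer cell genes were highest.

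Of 12 adhesion receptors of group E and leukocyte antigens 11 were tested, 3 higher and 8 lower, with a median of -0.13 (lowest -0.16 leaving out t-DHEA rat 3, highest -0.05 leaving out t-DHEA rat 2). Cd53, a tetraspanin of leukocytes, was at 13.5, 14.4 and 13.9 CPM against 12.5, 10.3 and 8.42 CPM and met the criteria at -0.42 with an unadjusted p of 0.0231 in edgeR. The call was lost when t-PBS rat 2, t-DHEA rat 2 or t-DHEA rat 3 was left out, and the value was -0.28 without the last. Of 18 inflammatory mediators only 8 were tested, 3 higher and 5 lower, with a median of -0.06 (lowest -0.19 leaving out t-DHEA rat 3, highest 0.13 leaving out t-DHEA rat 2), and Il6 and Cxcl2 had no count in any liver. Cd14, the co-receptor of lipopolysaccharide, was at 26.1, 14.01 and 31.2 CPM in the t-PBS livers and at 15.9, 12.8 and 15.1 CPM in the t-DHEA livers, and it met the criteria at -0.70 (unadjusted p 0.0231 in edgeR). Leaving out t-PBS rat 1, t-PBS rat 3 (-0.46), t-DHEA rat 2 or t-DHEA rat 3 ended the call. Cxcl1, a neutrophil chemokine, met them at -1.08 (unadjusted p 0.0246 in edgeR), but not when t-PBS rat 1 (-0.68) or t-DHEA rat 3 was left out.

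**Figure D5:**
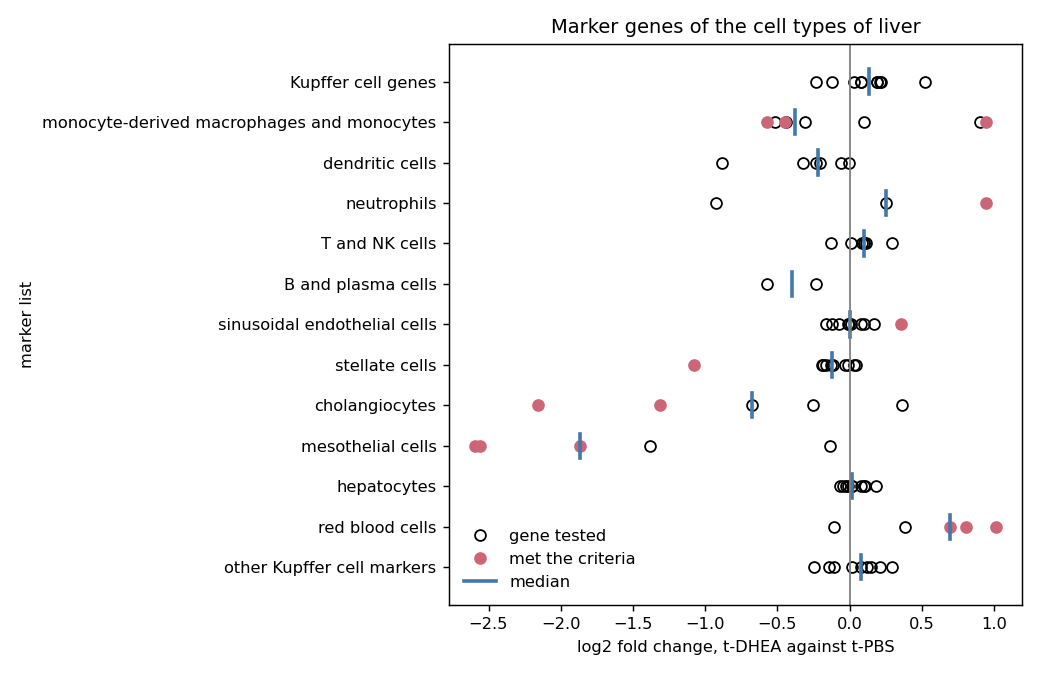
Log2 fold change, t-DHEA against t-PBS, of the tested marker genes of each cell type of liver (1 circle per gene, filled where the criteria were met) with the median of each list (blue bar). The Kupffer cell genes lie between -0.23 and 0.53 with none filled, while 3 of the 5 mesothelial genes are filled, from -2.59 to -1.87.

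Markers of the other cells in a piece of liver were set beside the Kupffer cell genes. Of 12 markers of monocytes and monocyte-derived macrophages 8 were tested, 3 higher and 5 lower, with a median log2 fold change of -0.38 (lowest -0.44 leaving out t-PBS rat 3, highest -0.16 leaving out t-PBS rat 2). Of them, 1 met the criteria as higher and 2 as lower, Ly86 and the Lyz2 already given. Their summed level was 63.9 to 67.8 CPM in the t-PBS livers and 45.7 to 58.4 CPM in the t-DHEA livers. Most of it was Lyz2, and without Lyz2, a sum also formed after the values were seen, it was 21.0, 22.9 and 19.4 CPM against 19.2, 18.9 and 19.6 CPM, with overlap. Ly86, a partner of the receptor RP105, fell by 0.57 on the log2 scale (SE 0.17, unadjusted p 0.00860 in edgeR), from 5.89, 5.90 and 6.04 CPM to 3.72, 4.64 and 3.63 CPM, and it met the criteria in all 6 fits without 1 liver. The defining monocyte gene Ccr2 had only 14 counts over the 6 livers and S100a8 only 20. S100a9, a gene of neutrophils and monocytes with 81 counts in all, met the criteria in the other direction at 0.94, with an unadjusted p of 0.0440 in edgeR. It no longer did so when t-PBS rat 2, t-PBS rat 3 or t-DHEA rat 1 (0.59) was left out, nor in DESeq2, where the unadjusted p was 0.0935.

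Of 10 dendritic cell markers 6 were tested and all 6 were lower, with a median of -0.22 (lowest -0.58 leaving out t-DHEA rat 1, highest -0.02 leaving out t-DHEA rat 2) and 0 meeting the criteria, and the summed level was 11.3 to 16.3 CPM against 9.35 to 13.8 CPM. Of 11 neutrophil markers only 3 were tested, Mpo and Ltf were at 0 in every liver, and the sum was 2.29 to 3.15 CPM against 2.99 to 4.21 CPM. Of 14 T and NK cell markers 7 were tested, 6 higher and 1 lower, at 39.8 to 41.4 CPM against 37.1 to 43.1 CPM. Most of that sum was Cd4, at 26.15, 23.97 and 24.23 CPM against 20.89, 21.7 and 25.26 CPM. Cd3d, Cd3g and Cd5 had only 16, 30 and 1 counts over the 6 livers, so the sum says little about T cells. Of 8 B and plasma cell markers 2 were tested, both lower, at 4.83 to 8.27 CPM against 3.94 to 6.21 CPM. No gene of the dendritic, T and NK, or B and plasma cell lists met the criteria.

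Sinusoidal endothelial markers, which share the sinusoid wall with Kupffer cells, had 10 of 11 tested, 5 higher and 5 lower, with a median of 0.00069 (lowest -0.21 leaving out t-PBS rat 1, highest 0.20 leaving out t-PBS rat 3) and a summed level of 418 to 629 CPM against 561 to 590 CPM. Kdr, the VEGF receptor, met the criteria at 0.36 but not when t-PBS rat 1 (0.22), t-DHEA rat 1 or t-DHEA rat 2 was left out. Stellate cell markers had 2 higher and 8 lower of 10, with a median of -0.12 (-0.13 to -0.08 when each liver was left out) and a sum of 275 to 302 CPM against 261 to 291 CPM. Lum met the criteria at -1.08, but not when t-PBS rat 2 (-0.72) or t-DHEA rat 3 was left out. Hepatocyte markers had 6 higher and 4 lower of 10, none meeting the criteria, and a median of 0.01 (lowest -0.04 leaving out t-DHEA rat 3, highest 0.10 leaving out t-DHEA rat 2).

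The cell type lists with the largest median differences were those of mesothelial cells, cholangiocytes and red blood cells. In the cholangiocyte list only keratin genes met the criteria, and in the red blood cell list only globin genes did. Mesothelial markers had 5 of 6 tested and all 5 lower, with a median of -1.87 (lowest -2.70 leaving out t-DHEA rat 3, highest -1.41 leaving out t-DHEA rat 2), and their sum was 33.4 to 36.2 CPM in the t-PBS livers and 1.72 to 27.3 CPM in the t-DHEA livers, least in t-DHEA rat 2. Msln fell by 1.87, Upk3b fell by 2.56 and Muc16 fell by 2.59 on the log2 scale, and each met the criteria in all 6 fits without 1 liver. Gpm6a, at -0.13, was lower only through t-DHEA rat 2. It was at 10.37, 10.25 and 10.79 CPM in the t-PBS livers and at 12.72, 0.15 and 15.91 CPM in the t-DHEA livers. For this gene t-DHEA rats 1 and 3 thus lay above every t-PBS liver. Cholangiocyte markers had 5 of 8 tested, 1 higher and 4 lower, with a median of -0.68 (lowest -1.13 leaving out t-DHEA rat 1, highest -0.46 leaving out t-PBS rat 1) and a sum of 19.3 to 23.8 CPM against 9.65 to 17.4 CPM. Krt19 fell by 1.31. Krt7 (-2.16) no longer met the criteria when t-PBS rat 3 or t-DHEA rat 1 was left out, and was -4.28 without t-DHEA rat 3. DESeq2 did not call Krt7 (unadjusted p 0.102). The other tested markers, Sox9 (-0.677), Epcam (-0.255) and Cftr (0.3645), had overlapping groups and did not meet the criteria. Red blood cell markers had 4 higher and 1 lower of 5, with a median of 0.70 (lowest 0.29 leaving out t-DHEA rat 2, highest 0.89 leaving out t-DHEA rat 1) and a sum of 185 to 284 CPM against 304 to 590 CPM, most in t-DHEA rat 2. Hba1 (0.81) and Hbb-b1 (1.02) met the criteria in all 6 fits without 1 liver. Hbb (0.70) did so in 3, was 0.29 without t-DHEA rat 2, and was not called by DESeq2 (unadjusted p 0.101). The markers other than globins, Alas2 (0.3835) and Slc4a1 (-0.1054), had overlapping groups and did not meet the criteria. The liver of t-DHEA rat 2, at the extreme of the mesothelial and red blood cell sums, was also the lowest liver for Csf1r, Cd68 and Cd163 and the highest for Marco. The part of these other cells in the levels of the Kupffer cell genes was not tested.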

How the data were processed

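Liver RNA-seq libraries of 3 t-PBS and 3 t-DHEA rats were analysed. Per the labels and the submitters' processing notes, reads were mapped to Rnor_6.0 with HISAT2 2.0.4 and counted with StringTie 1.3.0. The annotation release and the strand setting are not given in the sources used here, so counts of antisense or overlapping genes would be uncertain. The counts deposited by the authors are raw. The FPKM values deposited by the authors are these counts divided by a fixed length and by the library total, within a relative spread of 3.91e-05 for 10462 genes, and hold nothing further. No value column was left out (0). The lowest chi-square per degree of freedom between the counts of a pair of livers was 16.2, and no library was a duplicate.

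In R 4.3.3, edgeR 4.0.16 gave TMM factors and the two-sided quasi-likelihood test of all 6 livers after its default filter, adjusted by the Benjamini-Hochberg method over all genes tested. Log2 CPM used a prior count of 2. Gene lists were matched by name (238 of 252 entries, 4 more through an older symbol), and 5 entries with a name on several rows were not tested. The Kupffer cell genes and all lists were chosen with earlier results of these data known, so lists are given as counts and medians with no test. Named were every Kupffer cell gene, up to 3 genes per list with the lowest p, and the 5 genes most like the mean of the Kupffer cell genes. Genes named beyond this rule (among them Csf1, Il34, Spi1, Msr1, Hmox1, Slc40a1 and markers at few counts) were chosen after their values were seen, for their known roles. The fits were tested on simulated data. Alternatives were DESeq2 1.42.0, the likelihood-ratio test, other scalings and filters, limma 3.58.1 on log2 FPKM, other thresholds, a replicate block and each liver left out. Histology, serum, 16S and metabolome measurements were not analysed here.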

Additional observations from a re-analysis of the deposited data

How the results depend on the processing

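The number of genes meeting the criteria (604) was 0 at an adjusted p below 0.05 and 275 with a fold-change above 1.5, and stayed within 1.5 times under the other alternatives (414 with DESeq2, 776 with no filter on low counts), with 514 to 747 when each liver was left out. No Kupffer cell gene met the criteria in these livers, and none did under another test, scaling or filter. The other thresholds, an adjusted p below 0.05 and a fold-change above 1.5, were stricter. That none passed them was therefore fixed in advance. With a replicate block, 1 did (Marco) and 539 genes did in all. Livers of the same rat number did not deviate together (residual correlations -0.06, -0.06 and -0.06), and no liver correlated best with its own number, so the numbers are only names. Leaving out each liver gave 0 to 1 Kupffer cell genes, in turn Marco, Vsig4, Cd163 or Cd68 as stated above.

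Of 150 values of single Kupffer cell genes under the alternatives, 137 kept their direction and their side of the threshold, 5 passed it and 8 turned sign. The log2 fold change of C1qc was -1.31e-05 with total counts only, -0.0145 and -0.0142 with limma on log2(FPKM + 0.1) and log2(FPKM + 1), and from -0.176 to 0.137 when each liver was left out. Left out in the same way, C1qa ranged from -0.0754 to 0.242 and Adgre1 from -0.115 to 0.19. The median of the 10 genes ranged from -0.03 to 0.21. It was 0.13 with the replicate block. The cause of these changes was not tested. With 3 livers a group, the width of the intervals rather than the depth limited the smallest difference that could be seen.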
